A study of Homo sapiens with 4 samples.

Results

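The SLC25 family comprises the mitochondrial carriers, and its 48 protein-coding genes with a symbol of SLC25A plus a number were examined here among 20144 protein-coding genes. The members were chosen by symbol in GENCODE release 44 lifted to hg19, and the promoter of each ran from 1000 bp before to 1000 bp after the start of its canonical transcript. In cells that had received a DNA methyltransferase construct, 27 of the 48 carrier promoters held a new DNA methylation peak and 21 did not. The promoters that stayed without a peak included 3 of the 4 ADP/ATP carriers and all 6 carrier promoters without a CpG island. All 5 carrier genes on the X chromosome, the ADP/ATP carriers SLC25A5 and SLC25A6 among them, also had none. Over all coding genes, 41.6% of promoters had a peak, with 8.17% of those on X and 1.65% of those without an island.

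The data come from MBD-seq, in which MBD2, a protein that binds methylated CpGs, captures fragments of genomic DNA for sequencing, so that methylated, CpG-dense DNA is enriched. HEK293 cells, a human embryonic kidney line, were left untreated or were transfected with dCas9 carrying a SunTag peptide array, a sgRNA against the CpG island of ISG15 and an antibody fragment joined to the catalytic domain of DNMT3A with DNMT3L (Ab-3A3L). The DNMT3A part was wild type (WT) or carried the change K844E or R887E, and sorted cells that had taken up the plasmids were used 3 days after transfection. There was 1 library for each of the 4 conditions, and the values below are from the list of 12864 new peaks of the WT library, which the authors called against untreated cells, while the other libraries were not analyzed here. The constructs were expressed transiently from plasmids, and the list has no column for the methylation level of untreated cells. Their signal may enter only through the background against which a listed peak was called. A gene without a row in the list was therefore not shown to be unmethylated: whether its promoter was methylated already, gained no methylation or fell short of the peak threshold was not tested.

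Mitochondrial carriers are small proteins of the inner mitochondrial membrane, built from repeats of a motif with a pair of membrane helices, which open in turn to the cytosol and to the matrix. They move nucleotides, amino acids, carboxylates, phosphate, vitamins and metals that the inner membrane would not let through, and most work as exchangers. DNMT3A methylates cytosines in CpG dinucleotides, and CpG islands are the CpG-dense stretches at many promoters, which are mostly unmethylated in normal cells.

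The 150 bases before the start site show how differently CpGs are spread over these promoters, and 8 such stretches from hg19 are given 5′ to 3′ on the strand of the gene, with every CpG in capitals. The first 4 belong to the ADP/ATP carriers, which perform the same exchange. The next are the member with the densest peak (SLC25A12) and a member with a peak and few CpGs directly upstream (SLC25A21). The last are members without a peak, the ornithine carrier SLC25A2 and the NAD carrier paralog SLC25A52. SLC25A12, SLC25A21 and SLC25A2 were chosen for printing after their values had been seen.
SLC25A4, chr4:186064270-186064419, + strand: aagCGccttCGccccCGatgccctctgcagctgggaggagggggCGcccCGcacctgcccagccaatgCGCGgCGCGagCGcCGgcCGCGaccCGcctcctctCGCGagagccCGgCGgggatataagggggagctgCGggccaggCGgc
SLC25A5, chrX:118602257-118602406, + strand: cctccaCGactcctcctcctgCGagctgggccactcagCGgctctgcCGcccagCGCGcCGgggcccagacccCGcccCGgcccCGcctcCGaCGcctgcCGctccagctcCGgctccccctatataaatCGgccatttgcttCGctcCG
SLC25A6, chrX:1511007-1511156, - strand: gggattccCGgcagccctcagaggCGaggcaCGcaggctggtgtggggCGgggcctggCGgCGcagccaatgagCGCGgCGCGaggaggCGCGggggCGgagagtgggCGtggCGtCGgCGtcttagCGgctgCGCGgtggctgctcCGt
SLC25A31, chr4:128651405-128651554, + strand: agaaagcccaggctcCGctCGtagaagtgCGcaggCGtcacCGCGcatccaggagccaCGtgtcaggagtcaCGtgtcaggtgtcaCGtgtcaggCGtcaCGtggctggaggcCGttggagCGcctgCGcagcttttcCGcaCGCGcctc
SLC25A12, chr2:172750755-172750904, - strand: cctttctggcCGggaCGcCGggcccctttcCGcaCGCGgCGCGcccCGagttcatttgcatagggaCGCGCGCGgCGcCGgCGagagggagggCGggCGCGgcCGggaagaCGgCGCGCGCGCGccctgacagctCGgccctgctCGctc
SLC25A21, chr14:37641812-37641961, - strand: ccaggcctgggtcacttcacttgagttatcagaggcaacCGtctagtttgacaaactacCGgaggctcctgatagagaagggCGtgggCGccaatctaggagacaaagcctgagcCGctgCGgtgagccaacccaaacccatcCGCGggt
SLC25A2, chr5:140683617-140683766, - strand: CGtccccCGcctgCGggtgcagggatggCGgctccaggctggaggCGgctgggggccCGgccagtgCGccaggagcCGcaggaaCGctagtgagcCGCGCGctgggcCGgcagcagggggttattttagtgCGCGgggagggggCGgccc
SLC25A52, chr18:29340844-29340993, - strand: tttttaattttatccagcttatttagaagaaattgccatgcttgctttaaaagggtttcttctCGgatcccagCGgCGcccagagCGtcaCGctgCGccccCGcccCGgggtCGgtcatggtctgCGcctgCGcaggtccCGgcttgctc
The stretches held 20 CpGs at SLC25A4, 17 at SLC25A5, 21 at SLC25A6 and 17 at SLC25A31. The stretch of SLC25A12 held 28 and that of SLC25A21 only 8, whereas those of SLC25A2 and SLC25A52, both without a peak, held 16 and 12. All 150 bases were inside the new peak at SLC25A12, 144 were at SLC25A21, and 16 were at SLC25A4, whose peak began just before the start site. Among these 8 stretches, the number of CpGs directly upstream did not separate the members with a peak from those without. The stretches were picked, SLC25A21 for its few CpGs, and this number was not compared over the whole family.

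Over the family, a new peak overlapped 56.25% of the promoters (27 of 48, 95% exact binomial interval 41.2 to 70.5%), with at least 1 bp of overlap. Over all coding promoters the share was 41.6% (8386 of 20144). Carrier promoters were richer in CpGs, with a median of 108.5 CpGs in the window against 96 over all coding genes. When each member was given the share with a peak among the other promoters of its own CpG class, out of 10 classes of about equal size, the mean was 49.9%, which corresponds to 23.97 of 48 promoters. The observed share was 6.32 percentage points higher, and the interval of the observed share contains both 41.6% and 49.9%. The family could therefore not be told apart from promoters of a like CpG number in this library. The intervals cover counting error only, and with 1 library no value could be compared with a spread between replicates.

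The CpG number went along with the presence of a peak within the family. No peak was found at the 4 members with under 50 CpGs in the window, and 2 of the 7 with at least 50 but under 80 CpGs had one. With at least 80 but under 110 CpGs, 7 of 14 members had a peak, and with at least 110 but under 140, 10 of 12 did. Of the 11 members with at least 140 CpGs, 8 had a peak. All coding promoters in the same ranges had a peak in 0.947%, 16.98%, 46.0%, 66.8% and 78.1% of cases. The rise with CpG number was therefore common to both. The median was 122 CpGs in members with a peak and 82 in those without, but the groups overlapped widely: SLC25A20, the carnitine/acylcarnitine carrier, had a peak with 75 CpGs, while SLC25A6 had none with 200.

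CpG islands were rebuilt from the sequence as stretches longer than 200 bp in which G and C made up at least 50% of bases and the ratio of observed to expected CpGs was over 0.6. Such an island overlapped 42 of the 48 carrier promoters, and 27 of these 42 had a peak (64.3%, interval 48.0 to 78.4%), against 57.7% of all island promoters. The 6 members without an island were SLC25A18, SLC25A34, SLC25A41, SLC25A45, SLC25A47 and SLC25A52, and none had a peak. Among all promoters without an island, 1.65% had one. The islands of the 27 members with a peak had a median length of 885 bp, from 302 bp at SLC25A12 to 2982 bp at SLC25A39, and held a median of 98 CpGs. Those of the 15 island members without a peak had a median length of 644 bp, from 378 bp at SLC25A53 to 1458 bp at SLC25A6, with a median of 62 CpGs. The ranges overlapped, and the shortest and the longest island both belonged to a member with a peak. The solute carrier genes outside the SLC25 family gave 141 of 320 promoters with a peak (44.1%), and 140 of 217 (64.5%) where an island was present, which is close to the value of the mitochondrial carriers.

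All 5 carrier genes on the X chromosome were without a peak, although 3 of them had over 100 CpGs in the window. These were SLC25A5 with 136 CpGs, SLC25A6 with 200, SLC25A14 with 81, SLC25A43 with 103 and SLC25A53 with 60, and all 5 promoters overlapped an island. A share of 0 of 5 allows up to 52.2% by the exact interval. Over all coding genes on X, 71 of 869 promoters had a peak (8.17%), and 12.9% of those with an island, against 59.5% of island promoters on the autosomes. A low share on X was thus found for coding genes in general and not for the carriers alone. SLC25A6 lies in the first region shared by X and Y, where none of 16 coding promoters had a peak, and how reads from that region were placed on both copies is not given in the sources used here. On the autosomes, 27 of 43 carrier promoters had a peak (62.8%, interval 46.7 to 77.0%), against 43.2% of all and 51.8% of autosomal promoters of a like CpG number. The interval contains the latter value but not the former, and the restriction to autosomes was chosen after seeing the data.

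The adenine nucleotide exchangers had a peak at 3 of 8 promoters, against 4.61 given by promoters of a like CpG number. SLC25A4, the ADP/ATP carrier of heart and muscle, had a peak of 517 bp over its start site with 12 fragments at the summit and a fold of 8.07. The fold is the ratio, in the authors' list, of fragments at the summit to a local background. SLC25A5, the ADP/ATP carrier of dividing cells, SLC25A6, the widely expressed one, and SLC25A31, that of testis, had no peak, with 136, 200 and 78 CpGs in the window. SLC25A4 itself had 135 CpGs, 1 fewer than SLC25A5. SLC25A5 and SLC25A6 are on X, where 8.17% of all coding promoters had a peak. The numbers given by promoters of a like CpG number, here and in the groups below, do not take the chromosome into account. The calcium-regulated ATP-Mg/phosphate carriers were also divided: SLC25A24 had a fold of 7.45 with 11 fragments and SLC25A25 a fold of 4.75 with 15, whereas SLC25A23 with 140 CpGs and SLC25A41 with 41 had none.

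Of the 10 carriers of other nucleotides and cofactors, 6 had a peak, against 5.09 given by promoters of a like CpG number. SLC25A51, the NAD carrier, had a fold of 12.7 with 20 fragments over a background rate of 0.650, at chr9:37903543-37904246. Its close paralog SLC25A52 had no peak, no island and 46 CpGs in the window against 134. The pyrimidine nucleotide carriers SLC25A33 and SLC25A36 both had peaks, with folds of 8.01 and 8.07 nearest the start, and a further peak with a fold of 9.93 lay at SLC25A36. The folate carrier SLC25A32 had a fold of 8.26 and the coenzyme A carrier SLC25A42 one of 5.84. No peak was listed at SLC25A16, a carrier linked to coenzyme A, SLC25A17 of the peroxisome, or SLC25A26, which imports S-adenosylmethionine, the methyl donor of DNA methylation.

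Amino acid carriers had a peak at 6 of 9 promoters, against 4.71 from a like CpG number. SLC25A15, the ornithine carrier of the urea cycle, had the highest fold of the family at the peak nearest the start, 14.3, with 22 fragments over a background rate of 0.611 at chr13:41363385-41364308. The related ornithine carrier SLC25A2 had none with 101 CpGs in the window. Both aspartate/glutamate carriers of the malate-aspartate shuttle had a peak with 12 fragments, with a fold of 7.26 at SLC25A12 (aralar) and 8.07 at SLC25A13 (citrin). The glutamate carriers differed, with a fold of 3.80 at SLC25A22 and no peak at SLC25A18, which had 32 CpGs, the fewest of the family. SLC25A29, a carrier of basic amino acids, had the most CpGs of the family in its window, 229, and the lowest fold, 2.57. The glycine carrier SLC25A38, needed for heme synthesis, had a pair of peaks with folds of 8.07 and 6.83, and SLC25A44, which carries branched-chain amino acids, had none.

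Among the carriers of carboxylates and carnitine, 4 of 5 had a peak, against 2.68 from a like CpG number. SLC25A21, the oxodicarboxylate carrier, had a fold of 11.2 with 17 fragments at chr14:37641364-37641955, in a window with 78 CpGs. SLC25A1, the citrate carrier that supplies fatty acid synthesis, had a fold of 9.97 with 20 fragments, and SLC25A20 had a fold of 9.05 with 16. SLC25A11, the oxoglutarate carrier, had a fold of 5.14 with 11 fragments. The dicarboxylate carrier SLC25A10 was the exception, with no peak and 157 CpGs in the window, the highest number among autosomal members without a peak.

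The carriers of phosphate, iron and glutathione had a peak at 4 of 5 promoters, against 3.77 given by promoters of a like CpG number. Both mitoferrins, which bring iron into the matrix, had peaks. At SLC25A28 (mitoferrin 2) the fold was 10.6 with 17 fragments at chr10:101380611-101381503, upstream of the start site. At SLC25A37 (mitoferrin 1) the peak nearest the start had a fold of 6.21 with 9 fragments, the fewest of the family, and the second, 824 bp wide, had a fold of 14.2 with 23. The glutathione carrier SLC25A39 had peaks with folds of 3.92 and 3.91, and its close relative SLC25A40 a single peak with a fold of 8.69. SLC25A3, the phosphate carrier that supplies ATP synthase, had none with 110 CpGs.

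In the group related to uncoupling proteins, SLC25A27 had a fold of 9.31 and SLC25A30 one of 9.30, while SLC25A14, on X, had no peak, which made 2 of 3 against 1.16 from a like CpG number. SLC25A46, which acts at the outer membrane in mitochondrial dynamics, had none with 91 CpGs. Of the 7 members whose substrates are less settled, SLC25A35 had a fold of 7.73 and SLC25A48 one of 4.07. The others, SLC25A34, SLC25A43, SLC25A45, SLC25A47 and SLC25A53, had no peak, and this group had the fewest CpGs, with a median of 60 in the window. Promoters of a like CpG number would give 1.55 of 7. The nearest peak to a member without one was 3663 bp from the start of SLC25A45, with a fold of 10.4, and the others were from 16121 bp (SLC25A47) to 3094751 bp (SLC25A53) away.

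**Figure D1:**
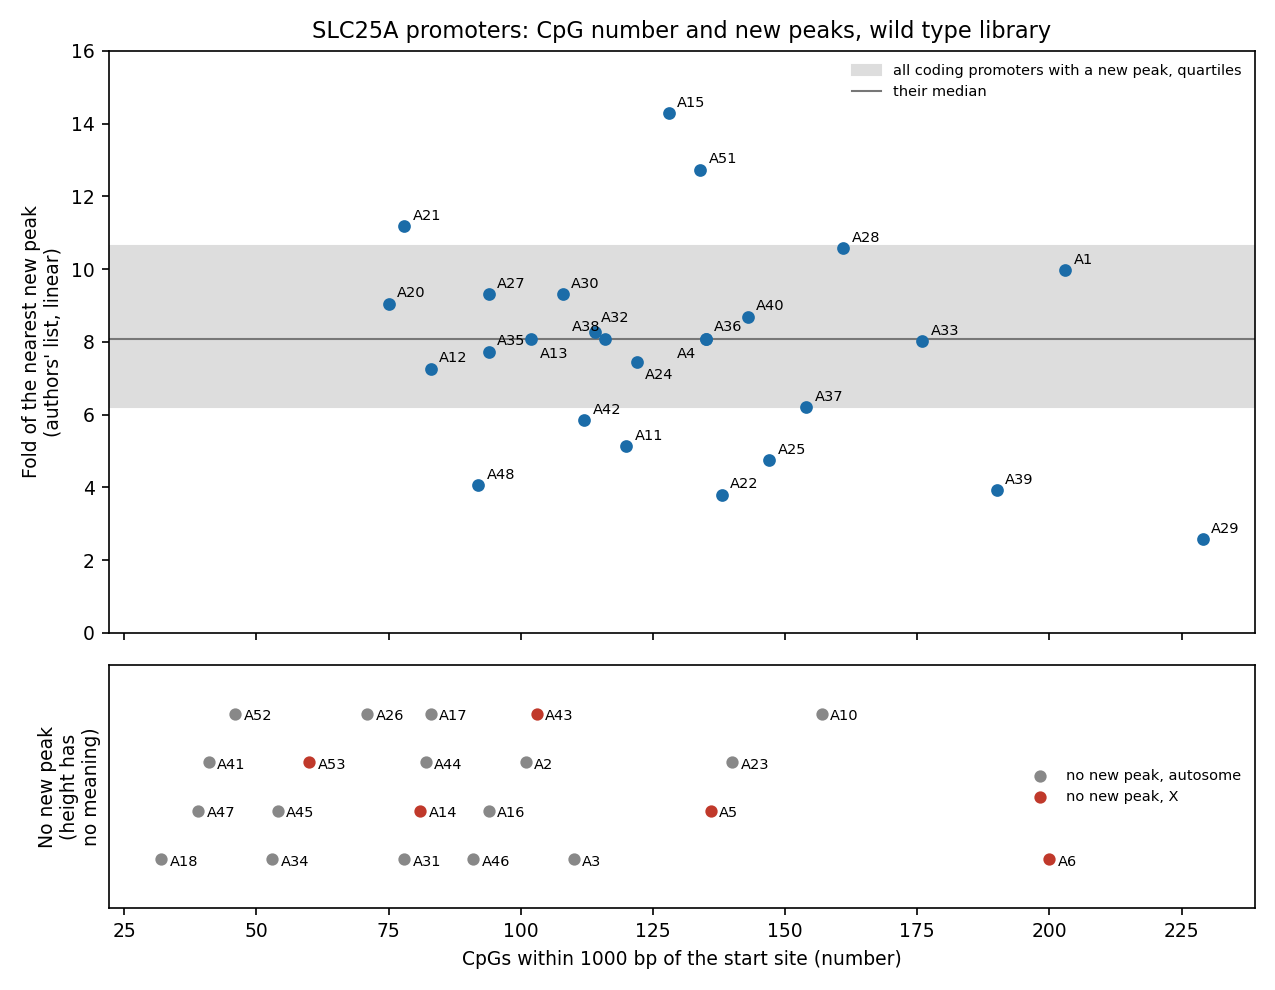
CpGs within 1000 bp of the start site (x axis, number) and fold of the new peak nearest the start (y axis, authors' ratio, linear) for 26 of the 27 SLC25A promoters with a peak, with the 21 without a peak in the lower panel, where height carries no value. Folds run from 2.57 at SLC25A29 to 14.3 at SLC25A15 with no rise along the x axis, and the members on X (red) all lie in the lower panel.

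The folds at carrier promoters centered where those of other promoters did. The median over the 27 members was 8.07 with quartiles of 6.02 and 9.18, and over all 8386 coding promoters with a peak it was 8.07 with quartiles of 6.21 and 10.6. At the peak nearest the start, a fold of at least 10 was listed at 4 of the 27 members (SLC25A15, SLC25A51, SLC25A21 and SLC25A28, 14.8%). By the same measure the background over all coding promoters with a peak was 30.3%. The second peak at SLC25A37, with a fold of 14.2, lies farther from the start and is not counted. By CpG class, 12 of the 27 were above the median fold of other promoters in their class. The fold did not rise with the CpG number of the window (Spearman's rho -0.19, Pearson's r -0.26, across the 27 members, which share 1 library). What did rise with it was the length covered by peaks (rho 0.49, r 0.60).

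The fold also carries the local background, a rate of fragments that was computed back from the listed values. At 10 of the 27 members this was the genome-wide rate of 0.611. Across members, a higher rate went with a lower fold (rho -0.65, r -0.71), as the fold is a ratio to that rate. The 4 lowest folds belonged to SLC25A29 with 23 fragments over a rate of 8.33, SLC25A22 with 34 over 8.20, SLC25A39 with 24 over 5.37 and SLC25A48 with 20 over 4.16. Each of them had more fragments at its summit than the median member, which had 16, and SLC25A22 had the most of the family. A low fold in these genes was therefore not a low number of fragments. As the peaks were called against untreated cells, a high rate may include fragments of the untreated library at or near these promoters. Whether these promoters carried methylation before transfection was not tested. The same number over all coding promoters with a peak was a median of 17.

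The peaks sat on and just after the start site. The start lay inside a peak at 18 of the 27 members with a peak (66.7%), against 64.3% of all coding promoters with a peak. The median summit was 136 bp downstream of the start, with quartiles of 7.5 and 249 bp, and the summit was downstream at 20 of 27 (74.1%, against 70.8% of all). Summits ranged from -751 bp at SLC25A29 to 996 bp at SLC25A1. The summit nearest the start fell in an intron at 10 members, in a noncoding part of an exon at 8, upstream of the transcript at 7 and in a coding exon at 2, which were SLC25A1 and SLC25A25. At most 23 of the 48 promoters (47.9%) were covered at the same position. This number was first reached 35 bp and last reached 160 bp after the start, but not at every position between. Over all coding promoters the highest coverage was 30.2%, at 193 bp. The coverage was not matched for CpG number, and carrier promoters were richer in CpGs.

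Most members had a single peak, and 4 of 27 had more than 1 (SLC25A36, SLC25A37, SLC25A38 and SLC25A39, 14.8%, against 12.5% of all), which gave 31 peaks in all. The peaks nearest the start were 266 to 1282 bp wide with a median of 517 bp. The widest, at SLC25A29 (chr14:100772274-100773555), held 167 CpGs, and its start site lay inside it even though the summit was far upstream. The densest, at SLC25A12 (chr2:172750717-172751035), held 49 CpGs in 319 bp, or 15.4 per 100 bp. The sparsest, at SLC25A48, held 6.95 per 100 bp. The peak at SLC25A21 held 49 CpGs as well, in 592 bp, most of them after the start rather than in the stretch of 150 bases before it.

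**Figure D2:**
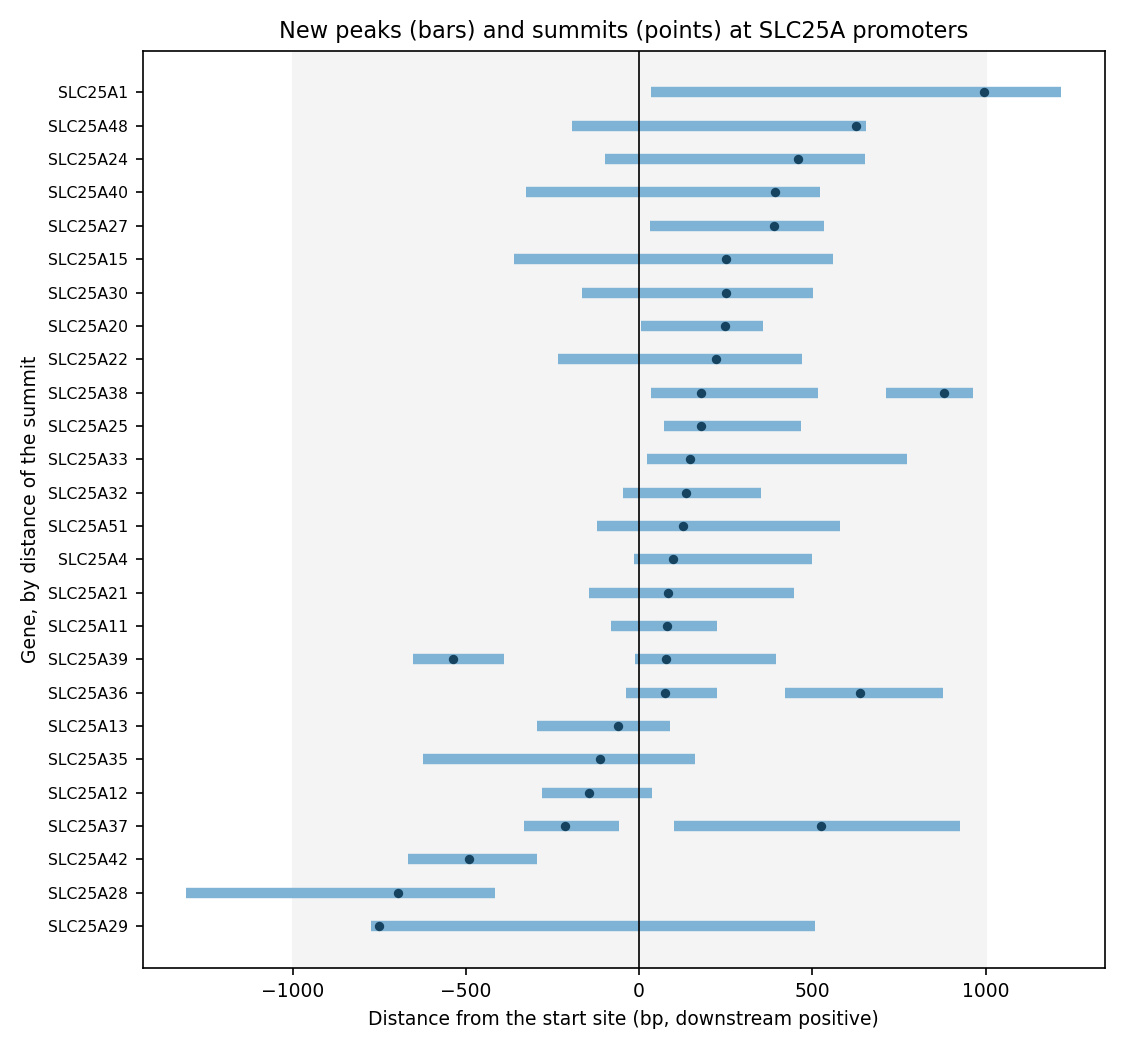
New peaks (bars) and their summits (points) at 26 of the 27 SLC25A promoters with a peak, by distance from the start site (x axis, bp, downstream positive), with 1 row per gene ordered by summit and the window of 1000 bp on either side shaded. Bars cross the start site at 17 of the genes drawn, and the summits run from -751 bp at SLC25A29 to 996 bp at SLC25A1.

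At 6 members the window also held the start site of another coding gene, and all 6 had a peak. The partners were RNF167 at SLC25A11, PANO1 at SLC25A22, NAIF1 at SLC25A25, CYP39A1 at SLC25A27, DCAF13 at SLC25A32 and DBF4 at SLC25A40. Peaks in these windows cannot be assigned to the carrier alone. Of the 42 members that did not share the window, 21 had a peak (50%), against 47.7% given by promoters of a like CpG number. The promoters behind the 47.7% include those that share their window. Over all coding promoters that do not share it, whatever their CpG number, 40.4% had a peak. Over all coding genes that share their window and have a CpG number within the range of these 6, 61.9% had a peak.

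Genes that work with the carriers were examined in 3 further lists. In the carriers of the same superfamily under other symbols, 2 of 5 had a peak, against 2.44 given by promoters of a like CpG number. They were UCP2, an uncoupling protein, with a fold of 21.0 and 38 fragments, above every SLC25A promoter, and MTCH2 of the outer membrane with 10.9. UCP1, the uncoupling protein of brown fat, UCP3, that of muscle, and MTCH1 had none. Of the 7 genes for the import of carriers into the inner membrane, 4 had a peak, against 3.38 given in the same way, namely AGK with 11.2, the receptor TOMM70 with 9.93, TIMM29 with 8.95 and TIMM10B with 6.21. The chaperones TIMM9 and TIMM10 and the insertase TIMM22 had none. The list of other mitochondrial transporters, made up of the pyruvate carrier subunits MPC1 and MPC2, the sideroflexins SFXN1 to SFXN5 and the porins VDAC1 to VDAC3, had a peak at 10 of 10 promoters, against 6.56 given by promoters of a like CpG number, with folds from 4.73 at SFXN3 to 13.7 at SFXN5. These counts were read as descriptions of a single library.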

How the data were processed

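Members and gene lists were chosen with earlier results of these data known. The authors mapped reads of MBD2-enriched DNA to hg19 with Bowtie2 under default settings. FastQC, deepTools and MACS2 are also named in the submitters' processing notes, and the peak settings are not given in the sources used here. The deposited list holds, for each peak, a score (the −log10 q times 10, rounded down, not used here), the fold as a ratio to a local background, the −log10 of both a p-value and a q-value, and the offset of the summit within the peak. The list comes from 1 library. The methods give the number of reads only as an average over samples, and the precision of a peak is set by its fragments at the summit, with a median of 18 over all peaks.

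Here, fragments at the summit and the background rate were computed back from each row, with the fold as fragments plus 1 over rate plus 1 and a Poisson p-value, and the listed −log10 p was met within 0.000403. That the list follows these formulas of MACS2 is an inference from the values. Start sites were those of GENCODE canonical transcripts, or the 5′ end of the gene for 281 genes without one. CpGs, islands (each CpG scored 17 and each other base -1, repeats not masked, 49509 islands) and sequences were read from GRCh37, the build of hg19. Genes in the region shared by X and Y were counted once. Where a promoter had several peaks, values are of the peak nearest the start. Shares have 95% exact binomial intervals, and no test was made. Genes were named if they had no peak, had the 8 highest or 4 lowest folds, the widest peak or the farthest summit, were close paralogs or shared their window, and the remaining members with a peak were added. The values of 1 member with a peak are not reported here and it is not drawn by name, although counts and medians include it. Further genes of the family's pathways were named if they had no peak or the highest fold of their list, and the others were added after their values were seen. Other settings of the peak threshold, overlap, window, start site, CpG classes and member rule were tried. Simulated data were used to test the recovery of fragments, the search for islands, the overlap with windows and the share from a like CpG number. The remaining steps were not tested in this way. Scripts ran under Python 3.11.15 with matplotlib 3.10.9, numba 0.67.0, scipy 1.17.1, pandas 2.3.3 and numpy 2.4.6.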

Additional observations from a re-analysis of the deposited data

How the results depend on the processing

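Of 55 alternative values, 42 stayed within the limits used and 13 moved. The limits were 1.5 times the reported value for counts, medians and the share among promoters of a like CpG number, and the 95% binomial interval for the share of all coding promoters. With peaks of at least the median fold only, 25.6% of all coding promoters and 30.7% of those of a like CpG number had a peak. With a −log10 q of at least 10, the shares were 24.7% and 29.4%, and 15 carrier promoters had a peak. The share of all coding promoters was 40.5% with the summit in the window, 39.9% within 500 bp, 42.7% within 2000 bp, 32.3% upstream of the start only, 44.4% from the start of any coding transcript, 57.7% with islands only and 43.2% on autosomes, an alternative chosen after seeing the data. Upstream only, the median summit distance was 82 bp. The count of 27 carrier promoters stayed at 27 with windows of 500 and 2000 bp. The observed share was above that of promoters of a like CpG number in 15 of 15 settings, by 1.83 to 11.0 percentage points. The settings reuse the same peak list and mostly the same members, so their agreement is not independent support. The difference of 11.0 came from the autosomes alone, the alternative chosen after seeing the data. Among the planned settings the highest was 7.60, with the summit in the window. No paired analysis was possible because each condition had a single library. Depth limits what can be read from a missing peak, and the carrier peak with the fewest fragments had 9 at its summit.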
